A study of Homo sapiens with 6 samples.

Results

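Here the 2 hairpins used to silence RBM10 in PC-9 cells were compared with each other, gene by gene, in the 4 libraries that carried them out of the 6 in the series. PC-9 is an EGFR-mutant human lung adenocarcinoma line that the study kept in RPMI with 10% FBS. The library titles name no drug. The 6 libraries were 2 with the control hairpin shScr, 2 with shRBM10#1 and 2 with shRBM10#2. shScr took no part in the tests and is quoted only as the control level. The estimated counts of all transcripts of a gene symbol were summed, giving 26334 gene totals per library, of which 14102 had enough counts to be tested and 12232 did not. The sources used here do not say whether the libraries of a hairpin came from separate infections or cultures, so every P value below measures only the spread between libraries. Each hairpin stands for 1 RNA sequence in 1 cell line, and a difference between the hairpins cannot be told apart from a difference between the cell populations that carry them.

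RBM10 is an RNA-binding protein of the spliceosome that binds near splice sites and mostly favors the skipping of exons, and its gene is recurrently inactivated in lung adenocarcinoma. A short hairpin RNA is cut by Dicer into a guide strand that directs Argonaute to a matching mRNA, and a guide can also lower other mRNAs that pair with only its bases 2 to 8, the seed. Hairpins against 1 gene share the target and differ in the rest of what the guide may bind, which is why they are used in pairs.

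The targeted stretches of the RBM10 mRNA are printed because they are what differs by design between the groups; capitals mark the 7 bases that would pair with bases 2 to 8 of a guide complementary to the whole site.
shRBM10#1 site: gacatggactaccGTTCATAt
shRBM10#2 site: cttcgccttcgtcGAGTTTAg
Both sites are 21 bases long and lie in the coding sequence. In GENCODE transcripts on GRCh38 the first is at X:47169409-47169429 on the + strand, in exon 3 of 24, and 4 of 6 annotated RBM10 transcripts contain it. The other is at X:47175032-47175052, in exon 6 of 24, and 5 of 6 RBM10 transcripts contain it. No other gene had an exact copy of either site.

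RBM10 itself was lower with shRBM10#2 than with shRBM10#1. Scaled to the library totals, as CPM, the level was 59.8 and 56.4 in the libraries of shRBM10#1, 27.2 and 26.9 in those of shRBM10#2, and 83.2 and 86.2 in the shScr controls. The 3 groups did not overlap, and shRBM10#1 lay between the other groups. The log2 fold change (log2 FC) of shRBM10#2 against shRBM10#1 was -1.10 ± 0.067 (SE, n = 2 libraries per hairpin; edgeR FDR = 8.03e-05), a level 2.15-fold lower. With the correction for GC content described below, the log2 FC of RBM10 was -0.93 (FDR = 0.000223), an absolute value below 1. The comparison of the hairpins is therefore also one of a deeper with a shallower loss of RBM10 mRNA. The other RNA-binding genes listed with RBM10 differed less: 2 of 8 tested members were lower at FDR below 0.05, RBM10 and RBM4. RBM4, a splicing regulator, was at 101 and 107 CPM with shRBM10#1 and at 89.7 and 87.1 CPM with shRBM10#2 (log2 FC = -0.24 ± 0.061, FDR = 0.02); its FDR was 0.128 with the correction for GC content described below and 0.274 without replicate 2 of shRBM10#2.

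The 4 hairpin libraries held 31953729 to 37557507 estimated counts and detected 16717 to 16966 genes, with 19.9% to 20.9% of the counts in the top 100 genes, and the shScr libraries held 32811419 and 32866663. Replicates of shRBM10#1 stood further apart than those of shRBM10#2, the chi-square over degrees of freedom between paired libraries being 12.3 and 3.23. Epithelial markers summed to 21208 to 27101 CPM in every library, whereas 5 of 6 alveolar markers, 6 of 7 fibroblast markers and 5 of 6 leukocyte markers were below 1 CPM in each of the hairpin libraries. Of 5 endothelial markers only 2 were; their sum was 28.3 and 36.0 CPM with shRBM10#1 against 20.5 and 19.9 CPM with shRBM10#2, and 1 of the 3 tested, CDH5, was lower at FDR below 0.05; the part of these markers in the results was not tested. The leukocyte markers summed to 83.5 to 90.4 CPM in the hairpin libraries and to 111 and 114 CPM in shScr, so that this set was not absent. Of 6 epithelial markers 3 were lower with shRBM10#2 at FDR below 0.05, KRT19, KRT7 and KRT8, and 1, KRT19, in the fit with the GC correction described below. Epithelial markers were thus high in this lung cancer line and alveolar markers low.

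With the study's criteria of FDR below 0.05 and an absolute log2 FC above 1, 161 of the 14102 genes differed between the hairpins (1.14%). Of these, 104 were higher with shRBM10#2 (0.737%) and 57 were lower (0.404%). Most were weakly expressed, since 132 of the 161 had a mean below 5 CPM over the 4 libraries, which left 13 higher and 16 lower genes at or above that level. At FDR below 0.05 alone, 3711 genes differed (26.3%), 1601 higher (11.4%) and 2110 lower (15.0%), with a median absolute log2 FC of 0.35. All 3711 had hairpin libraries that did not overlap, as did 65.3% of all genes tested (33.1% higher, 32.2% lower). The number of calls depended on single libraries. Without replicate 1 or replicate 2 of shRBM10#2, when the spread rested on the shRBM10#1 pair, 62 and 37 genes met the criteria and 397 and 206 passed the FDR alone. Without replicate 1 or 2 of shRBM10#1, 271 and 237 genes met the criteria and 5933 and 5670 passed the FDR alone. Only 178 of the 3711 genes kept an FDR below 0.05 when each of the 4 libraries was left out in turn, whereas 25 of the 29 genes at or above 5 CPM that met the criteria did.

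**Figure D1:**
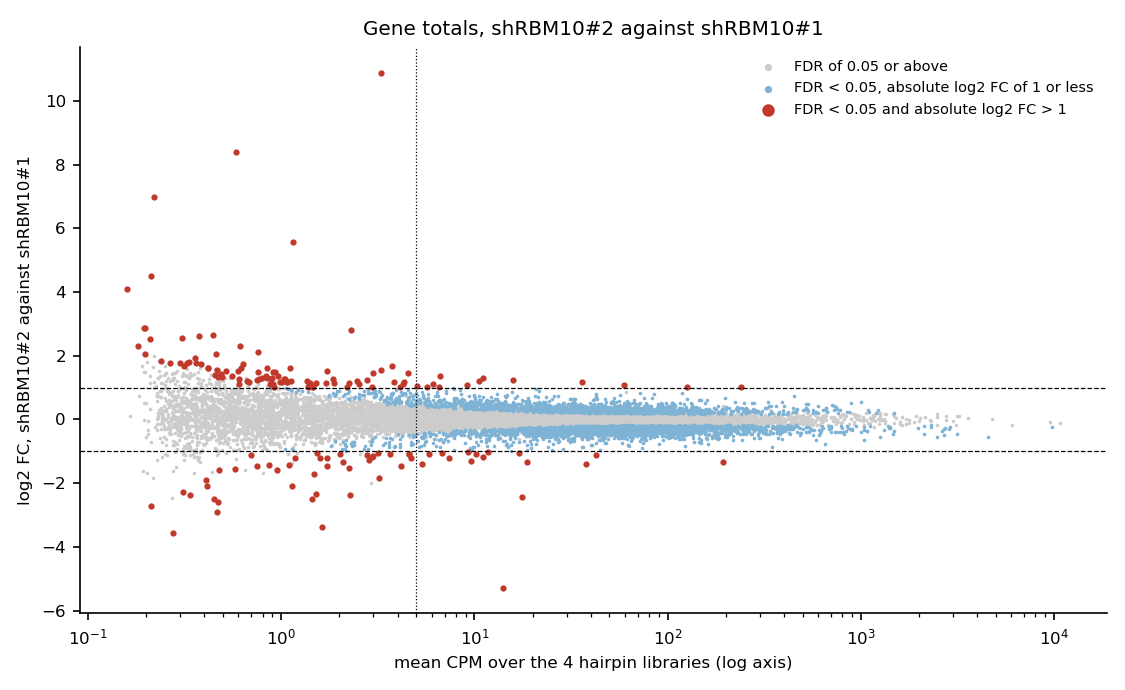
Log2 FC of shRBM10#2 against shRBM10#1 (y axis) for the 14102 genes tested against the mean CPM over the 4 hairpin libraries (x axis, log scale). Red points are the 161 genes that met both criteria, blue points passed the FDR alone, dashed lines mark an absolute log2 FC of 1 and the dotted line marks 5 CPM; 132 of the red points lie left of the dotted line.

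The many small differences followed the base composition of the transcripts. When the 13965 genes with a known transcript GC content were cut into 5 groups of 2793, the median log2 FC fell from 0.16 in the group with the lowest GC content (30.6% to 41.8%) through 0.09, 0.0033 and -0.11 to -0.21 in the group with the highest (59.2% to 76%). In the lowest group 26.9% of genes were higher with shRBM10#2 and 1.47% were lower; in the highest group 2.33% were higher and 36.7% were lower. Both libraries of a hairpin showed the same trend, and the part of GC content in the results was not tested. A second fit, added after these values were seen, removed the trend with a per-gene offset, the GC offset. It called 1867 genes at FDR below 0.05 (13.2%), 883 higher (6.26%) and 984 lower (6.98%), and 1486 of them were among the 3711. All 29 genes at or above 5 CPM that met the criteria kept an FDR below 0.05 in it, and 18 of them kept an absolute log2 FC above 1. Among them FAM45B and PCNA-AS1 had no known GC content and received no correction, so this fit was no check on them. Of the 178 genes kept in every leave-out, 177 were called with the offset.

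**Figure D2:**
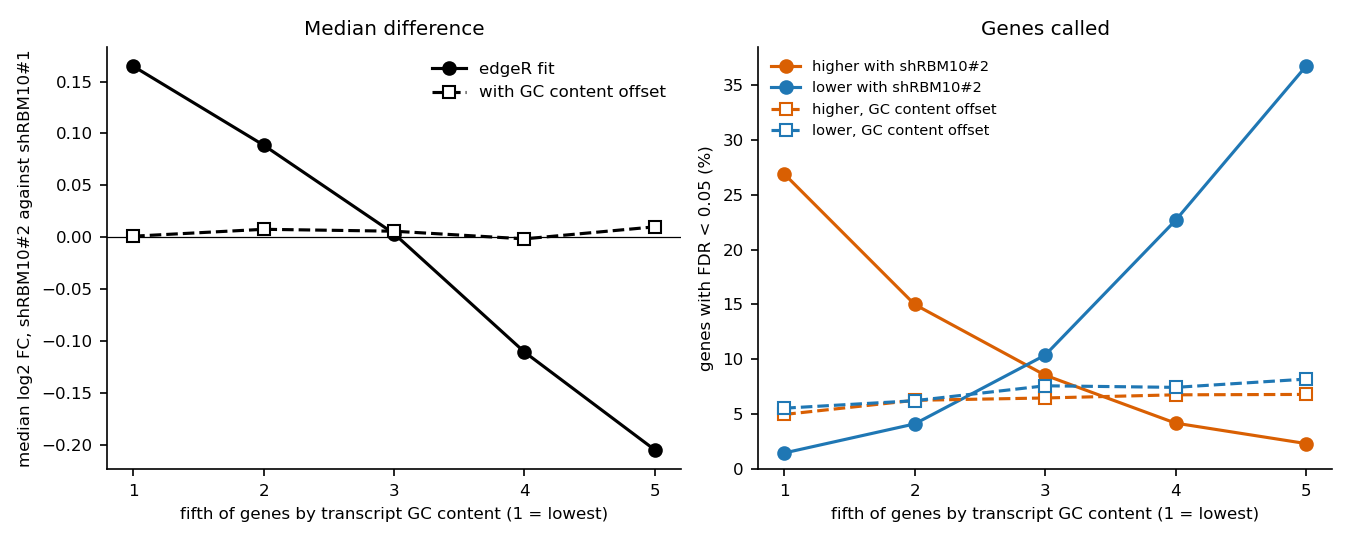
Genes tested, cut into 5 groups of 2793 by transcript GC content (x axis, 1 is the lowest). The left panel gives the median log2 FC of shRBM10#2 against shRBM10#1 and the right panel the percentage of genes with FDR below 0.05; filled circles are the edgeR fit and open squares the fit with a GC content offset, in which each direction held 4.98% to 8.20% of genes in every group.

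Among the 12 genes with the largest rises at or above 5 CPM, CEACAM5, the carcinoembryonic antigen, was at 6.10 and 6.65 CPM with shRBM10#1 and at 17.0 and 14.6 CPM with shRBM10#2 (log2 FC = 1.31 ± 0.118, FDR = 0.000447). PI3, which encodes the elastase inhibitor elafin, was at 9.08 and 9.66 CPM with shRBM10#1 and at 24.5 and 19.9 CPM with shRBM10#2 (log2 FC = 1.24 ± 0.117). In both genes shScr, at 17.7 and 18.2 CPM for CEACAM5 and 17.3 and 16.6 CPM for PI3, lay closer to shRBM10#2. DEFB1, an antimicrobial beta-defensin, was at 5.43 and 6.27 CPM with shRBM10#1 and at 12.6 and 12.3 CPM with shRBM10#2 (log2 FC = 1.08 ± 0.115). Unlike CEACAM5 and PI3, DEFB1 was low in shScr (5.60 and 4.74 CPM), so that shRBM10#2 alone stood apart. FUT9, a fucosyltransferase that builds Lewis antigens on glycans, was at 3.68 and 3.77 CPM with shRBM10#1 and at 7.08 and 8.09 CPM with shRBM10#2 (log2 FC = 1.03 ± 0.137, 0.79 with the GC offset).

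HBEGF, a ligand of EGFR and ERBB4 and thus of the receptor that drives this line, rose from 4.15 and 3.56 CPM with shRBM10#1 to 7.46 and 9.16 CPM with shRBM10#2 (log2 FC = 1.11 ± 0.152, FDR = 0.00151). Both hairpins were below shScr, at 21.5 and 17.6 CPM, and shRBM10#1 was furthest from it. Of 12 receptors and ligands of the family tested, 1 was higher, HBEGF, and 1 was lower, ERBB2 (179 and 197 CPM against 150 and 156 CPM, log2 FC = -0.30 ± 0.065, FDR = 0.00948), which was not called with the GC offset (FDR = 0.248) and had an FDR of 0.186 without replicate 1 of shRBM10#2; the counts with the offset were 1 and 0. AREG, another ligand, was at 1.47 and 1.90 CPM against 3.15 and 2.24 CPM (log2 FC = 0.67 ± 0.246, FDR = 0.0727). EGFR itself was at 241 and 197 CPM with shRBM10#1 and at 208 and 202 CPM with shRBM10#2 (log2 FC = -0.09 ± 0.087, FDR = 0.457).

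ALDH1A1, which oxidizes retinal to retinoic acid and other aldehydes, was among the most abundant genes to meet the criteria. It was at 128 and 189 CPM with shRBM10#1 and at 337 and 305 CPM with shRBM10#2 (log2 FC = 1.02 ± 0.144, FDR = 0.00174), with shScr at 131 and 138 CPM. Thus shRBM10#2 alone was high, although the replicates of shRBM10#1 differed. ATP5C1, the gamma subunit of mitochondrial ATP synthase, was at 83.2 and 82.9 CPM with shRBM10#1 and at 168 and 172 CPM with shRBM10#2 (log2 FC = 1.03 ± 0.057, FDR = 4.36e-05). Here shScr, at 136 and 133 CPM, lay between the hairpins. SEPW1, the small selenoprotein W, was at 19.6 and 24.3 CPM with shRBM10#1 and at 47.7 and 52.3 CPM with shRBM10#2 (log2 FC = 1.18 ± 0.0998), with shScr at 42.2 and 34.9 CPM. SNHG16, a noncoding host gene of small nucleolar RNAs, was at 39.9 and 36.8 CPM with shRBM10#1 and at 83.0 and 79.3 CPM with shRBM10#2 (log2 FC = 1.08 ± 0.068), and shScr, at 41.2 and 45.8 CPM, was close to shRBM10#1.

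CCDC88A, an actin-binding regulator of cell migration also called girdin, was at 3.93 and 3.53 CPM with shRBM10#1 and at 9.99 and 9.16 CPM with shRBM10#2 (log2 FC = 1.36 ± 0.129, FDR = 0.000447). TMOD2, which caps the pointed ends of actin filaments, was at 3.07 and 3.53 CPM against 6.97 and 6.60 CPM (log2 FC = 1.04 ± 0.142). Both cytoskeletal genes had shScr levels between the hairpins and closer to shRBM10#2. The remaining gene of the 12, FAM45B, was at 8.14 and 4.78 CPM with shRBM10#1 and at 14.8 and 14.5 CPM with shRBM10#2 (log2 FC = 1.19 ± 0.191), but its near-identical copy FAM45A was lower (11.5 and 13.8 CPM against 8.43 and 8.90 CPM), and the sum of both copies differed only 1.22-fold. FAM45B was the only one of the 12 whose FDR left the threshold in a leave-out (0.0512 without replicate 2 of shRBM10#2).

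Among the 12 genes with the largest falls, IGFBP5, a secreted protein that binds insulin-like growth factors, was at 270 and 289 CPM with shRBM10#1 and at 110.3 and 110.2 CPM with shRBM10#2 (log2 FC = -1.34 ± 0.061, FDR = 2.18e-05). Its shScr level was 72.3 and 78.3 CPM, so that both hairpins lay above shScr and shRBM10#1 furthest from it. SUSD2, a membrane protein with a sushi domain, was at 46.1 and 63.2 CPM with shRBM10#1 and at 22.8 and 19.1 CPM with shRBM10#2 (log2 FC = -1.39 ± 0.139), against 11.3 and 11.8 CPM with shScr. WNT11, a Wnt ligand of the noncanonical branch, was at 6.30 and 9.55 CPM with shRBM10#1 and at 4.07 and 3.37 CPM with shRBM10#2 (log2 FC = -1.10 ± 0.201, FDR = 0.00469). WNT11 was the least secure of these, with an FDR of 0.0818 without replicate 2 of shRBM10#2.

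Also lower was FGD5, an exchange factor for the small GTPase CDC42, at 6.65 and 8.82 CPM with shRBM10#1 and at 2.75 and 3.11 CPM with shRBM10#2 (log2 FC = -1.41 ± 0.172). IQGAP2, a scaffold protein at the actin cortex, was at 12.2 and 15.0 CPM against 5.98 and 4.98 CPM (log2 FC = -1.32 ± 0.139). ZNF703, a transcriptional cofactor amplified in luminal breast cancer, was at 21.2 and 32 CPM against 11 and 10.2 CPM (log2 FC = -1.33 ± 0.168). For these 3 genes shScr was level with shRBM10#2 or below it, at 1.76 and 2.00 CPM, 3.57 and 4.86 CPM, and 11.1 and 10.1 CPM. KRT23, a type I keratin, was at 12.6 and 18.2 CPM against 7.13 and 6.55 CPM (log2 FC = -1.17 ± 0.164). CAPN13, a calpain protease, was at 10.1 and 10.5 CPM against 4.44 and 4.54 CPM (log2 FC = -1.20 ± 0.116), and RNF39, a RING finger protein, was at 12.2 and 15.5 CPM against 5.90 and 7.18 CPM (log2 FC = -1.09 ± 0.145). The FDR of these 6 genes lay below 0.05 in each leave-out and with the GC offset.

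The 2 largest falls at or above 5 CPM were in genes that are near-identical to another gene or overlap it. SMN2 was at 52.9 and 1.60 CPM with shRBM10#1 and at 0.36 and 1.02 CPM with shRBM10#2, so that replicate 1 of shRBM10#1 carried most of the difference (log2 FC = -5.28, FDR = 0.0192). Without that library the log2 FC was -1.22 (FDR = 0.00906), and without replicate 1 or 2 of shRBM10#2 the FDR was 0.123 and 0.122. The near-identical SMN1 was at 17.1 CPM in the library where SMN2 was high and at 69.0, 78.9 and 79.5 CPM in the other hairpin libraries, and the sum of SMN1 and SMN2 was 70.0, 70.6, 79.2 and 80.5 CPM. The sum differed 1.14-fold, in the opposite direction to SMN2. PCNA-AS1, transcribed opposite to the replication clamp gene PCNA, was at 35.0 and 24.9 CPM with shRBM10#1 and at 5.76 and 5.24 CPM with shRBM10#2 (log2 FC = -2.44 ± 0.161, FDR = 0.000103), while PCNA was higher (274 and 300 CPM against 391 and 380 CPM) and the sum of the pair was 1.23-fold higher. Whether the counting used strand is not given in the sources used here, and without strand the reads of the pair cannot be told apart.

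**Figure D3:**
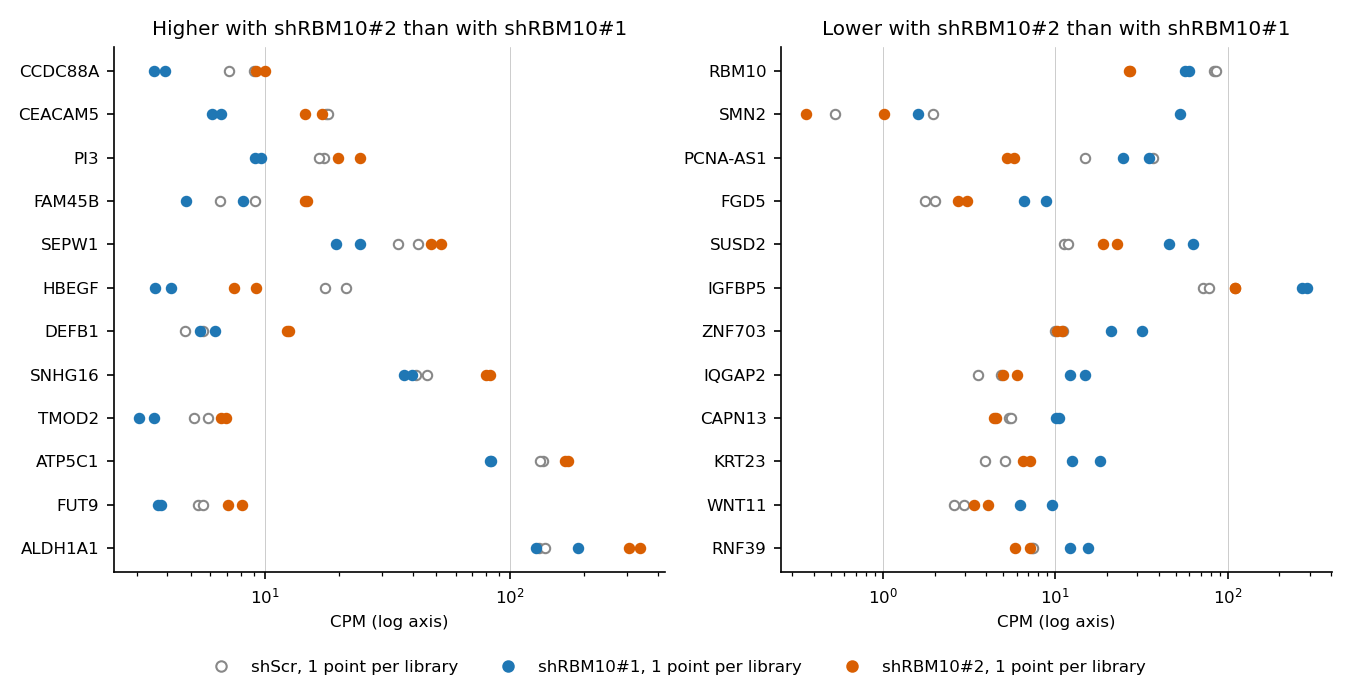
CPM in every library (x axis, log scale) of the 12 genes with the largest rise (left) and the 12 with the largest fall (right) at or above 5 CPM among the genes that met both criteria; each point is 1 library, open grey for shScr, blue for shRBM10#1 and orange for shRBM10#2. The orange and blue points do not overlap in any of the 24 genes, which holds for all 3711 genes called at FDR below 0.05. The grey points lie on the side of the orange ones in HBEGF, IGFBP5 and SUSD2 and of the blue ones in SNHG16 and DEFB1.

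Fused gene models were looked at after their values were seen. COMMD3-BMI1, a readthrough of neighboring genes, was listed at 0 in both shScr and both shRBM10#1 libraries and at 6.65 and 6.46 CPM with shRBM10#2, where the sum of the readthrough, COMMD3 and BMI1 was 1.22-fold higher than with shRBM10#1. DYX1C1-CCPG1 was listed at 0 with shRBM10#1 and at 1.27 and 1.06 CPM with shRBM10#2, and its locus as a whole differed 1.01-fold. RBM14-RBM4 was at 23.0 and 23.1 CPM with shRBM10#1 and at 11.2 and 10.9 CPM with shRBM10#2 (log2 FC = -1.06), as 1 of the 29 genes at or above 5 CPM that met the criteria, and here the locus as a whole was also lower, at a ratio of 0.789. These totals divide reads between overlapping models, and the differences in a readthrough are less certain than those of the locus.

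For most of the genes with large differences, shScr lay on the side of shRBM10#2. Of the 29 genes at or above 5 CPM that met the criteria, the mean of shScr was nearer to shRBM10#2 in 9 of 13 higher and 12 of 16 lower genes. Over all 161 it was nearer to shRBM10#2 in 61 of 104 higher and 38 of 57 lower genes. In the larger set of 3711 the order turned, with shScr nearer to shRBM10#1 in 1007 of 1601 higher (62.9%) and 1290 of 2110 lower genes (61.1%). These positions are descriptions without a test. They rest on CPM without the GC offset, which was not fitted to the shScr libraries. Of the 3711 genes, 1486 were also called with the offset, and the part of GC content in the turned order was not tested.

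The fixed gene lists held 648 tested genes, of which 107 were higher and 122 were lower with shRBM10#2 at FDR below 0.05, against 11.4% and 15.0% of all genes tested. Their median log2 FC was -0.0047, beside 0.0073 for all genes. With the GC offset 158 of the 648 were called, against 13.2% of all genes tested (6.26% higher, 6.98% lower). The offset counts of each list below are to be read beside these shares. Without replicate 1 or 2 of shRBM10#2, 40 and 30 were called, and without replicate 1 or 2 of shRBM10#1, 378 and 349. In all, 26 members were called in every leave-out, 14 higher and 12 lower, and all 26 were also called with the GC offset. In no list were more than 4 members called in 1 direction when a replicate of shRBM10#2 was left out. Of the 6 lists with 0 calls by edgeR in a direction, 4 also had 0 members at an unadjusted P below 0.05 and 0 by DESeq2 in it; the histones had 1 and 0 on the higher side, and the S100 and metallothionein genes 2 and 1 on the lower side.

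**Figure D4:**
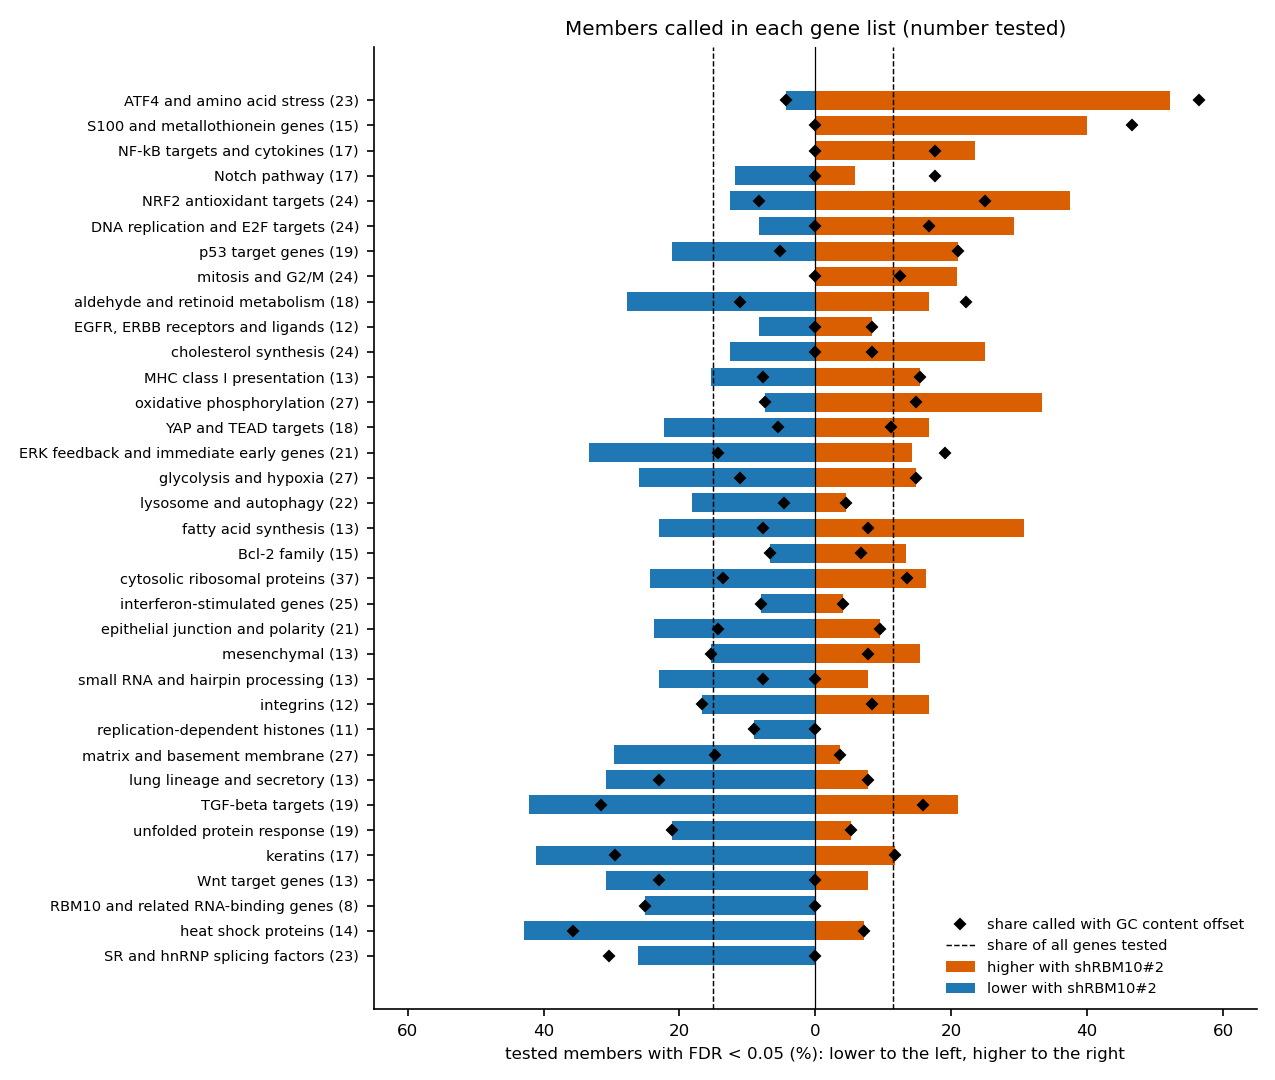
Percentage of the tested members of each gene list (rows, number tested in brackets) with FDR below 0.05, higher with shRBM10#2 to the right in orange and lower to the left in blue; black diamonds give the same with the GC content offset and dashed lines the share of all genes tested (11.4% higher, 15.0% lower). The ATF4 and amino acid stress list reached furthest to the right, with 12 of 23 members higher, and the heat shock list furthest to the left, with 6 of 14 lower. For the diamonds the shares of all genes tested were 6.26% higher and 6.98% lower, which the dashed lines do not show.

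The list with the most members on 1 side was that of ATF4 and amino acid stress. ATF4 is the transcription factor made when a lack of amino acids or another stress slows translation through eIF2 alpha, and it turns on transporters, synthetases and enzymes of serine and asparagine synthesis. Of 23 tested members 12 were higher with shRBM10#2 and 1 was lower, with a median log2 FC of 0.23; with the GC offset 13 were higher and 1 lower, with a median of 0.30. The count fell to 4 higher and 0 lower when either replicate of shRBM10#2 was left out. ASNS, which makes asparagine, was at 15.6 and 12.6 CPM with shRBM10#1 and at 27.5 CPM in both shRBM10#2 libraries (log2 FC = 0.97 ± 0.102, FDR = 0.000636). CHAC1, a glutathione-degrading enzyme induced by ATF4, was at 2.30 and 1.33 CPM against 6.33 and 5.06 CPM (log2 FC = 1.67 ± 0.239, FDR = 0.00183). SESN2, a sestrin that holds back mTORC1 when leucine is scarce and is a target of p53 as well, was at 12.5 and 9.61 CPM against 21.2 and 18.9 CPM (log2 FC = 0.87 ± 0.127, FDR = 0.00197). These 3 genes kept their call in every leave-out. Their shScr levels were above those of both hairpins, at 56.4 and 41.2 CPM for ASNS, 17.9 and 10.1 CPM for CHAC1, and 29.2 and 23.9 CPM for SESN2.

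Further members of that list differed by less. PSAT1, of serine synthesis, was at 140 and 112 CPM with shRBM10#1 and at 194 and 191 CPM with shRBM10#2 (log2 FC = 0.61 ± 0.093, FDR = 0.00221; 0.0603 without replicate 2 of shRBM10#2). SLC7A11, the cystine transporter, was at 296 and 242 CPM against 401 and 389 CPM (log2 FC = 0.55 ± 0.086; FDR = 0.00241, and 0.0656 without replicate 2 of shRBM10#2). The transcript of ATF4 itself was at 398 and 371 CPM against 453 and 455 CPM (log2 FC = 0.24 ± 0.06; FDR = 0.017, and 0.251 without replicate 2 of shRBM10#2). Other members were not called in the edgeR fit: SLC7A5, the leucine transporter, was at 392.2 and 294 CPM against 380 and 361 CPM (FDR = 0.482), PHGDH, the first enzyme of serine synthesis, at 314 and 307 CPM against 289 and 290 CPM (FDR = 0.21), and TRIB3 at 142 and 145 CPM against 151 and 143 CPM (FDR = 0.721). TRIB3 was called higher with the GC offset (FDR = 0.0379). VLDLR, a lipoprotein receptor, was the member that was lower (11.3 and 12.7 CPM against 8.26 and 8.61 CPM, log2 FC = -0.51 ± 0.109).

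**Figure D5:**
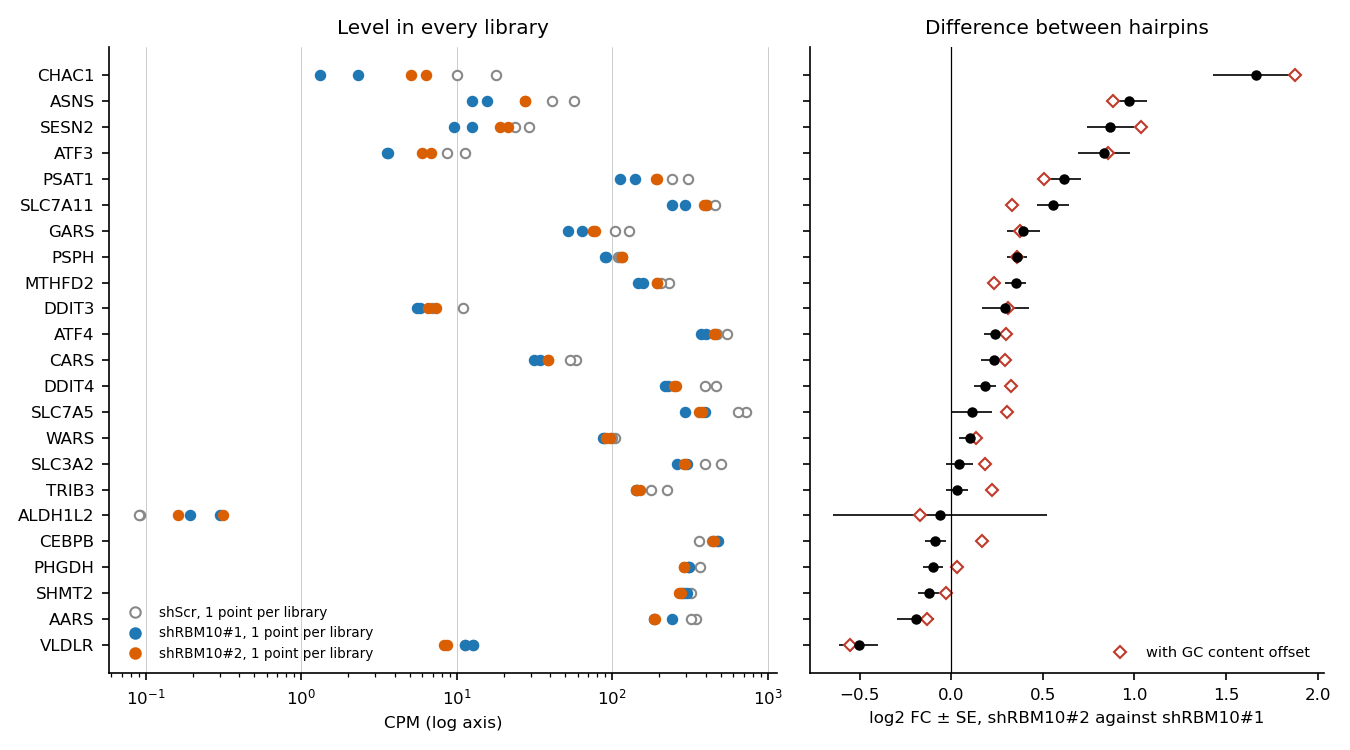
The 23 tested members of the ATF4 and amino acid stress list. The left panel shows the CPM in every library (log scale; open grey shScr, blue shRBM10#1, orange shRBM10#2) and the right panel the log2 FC of shRBM10#2 against shRBM10#1 with its SE, black, and with the GC content offset, red diamonds; CHAC1 is at the top with 1.67 and VLDLR at the bottom with -0.51.

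Protein folding genes went the other way or were mixed. Of 14 heat shock genes tested, 1 was higher and 6 were lower (median log2 FC = -0.07), and with the GC offset 1 and 5 were. HSPA1A, the inducible cytosolic Hsp70 chaperone, was at 1255 and 1280 CPM with shRBM10#1 and at 867 and 765 CPM with shRBM10#2 (log2 FC = -0.63 ± 0.0695, FDR = 0.000718), and the near-identical HSPA1B at 737 and 694 CPM against 472 and 449 CPM (log2 FC = -0.64 ± 0.061). Both kept their call in every leave-out, and shScr lay between the hairpins, at 928 and 1022 CPM for HSPA1A. Reads of these copies can be divided between them in counting, though both fell. Of 19 genes of the unfolded protein response 1 was higher, EDEM1, and 4 were lower, among them SDF2L1, an endoplasmic reticulum chaperone partner (39.4 and 37.5 CPM against 25.3 and 25.5 CPM, log2 FC = -0.59 ± 0.068, -0.35 with the GC offset), and CALR, the calcium-binding chaperone calreticulin (843 and 821 CPM against 628 and 639 CPM, log2 FC = -0.39 ± 0.056). The split was also 1 higher and 4 lower with the GC offset. SDF2L1 kept its call in every leave-out, and the FDR of CALR rose to 0.0846 without replicate 2 of shRBM10#2.

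Of 17 tested NF-kB targets and cytokines 4 were higher and 0 were lower with shRBM10#2, and 3 and 0 with the GC offset. The share called, 23.5%, was below the 26.3% of all genes tested. The list holds 25 genes, and those not tested included IL6, TNF and CCL20. CXCL8 and ICAM1, with the smallest P of the list, kept their call in every leave-out. CXCL8, the neutrophil chemokine IL-8, was at 2.24 and 2.58 CPM with shRBM10#1 and at 7.11 and 6.13 CPM with shRBM10#2 (log2 FC = 1.45 ± 0.16, FDR = 0.00074). ICAM1, the adhesion molecule for leukocyte integrins, was at 23.2 and 25.8 CPM against 38.5 and 37.3 CPM (log2 FC = 0.63 ± 0.075, FDR = 0.00097). For both genes shScr was level with shRBM10#2, at 6.59 and 6.23 CPM and at 40.1 and 38.7 CPM. IL1B, at 0.479 and 0.543 CPM against 1.37 and 1.17 CPM, and BIRC3, an inhibitor of apoptosis, at 3.55 and 4.53 CPM against 6.11 and 6.03 CPM, did not keep their call without replicate 1 of shRBM10#2 (FDR = 0.169 and 0.147).

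Among MHC class I genes the heavy chains and the inducible proteasome parted. HLA-B was at 29.6 and 35.2 CPM with shRBM10#1 and at 53.2 and 52.9 CPM with shRBM10#2 (log2 FC = 0.71 ± 0.084, FDR = 0.000952), and kept its call in every leave-out. PSMB9, a subunit of the immunoproteasome, was lower (19.0 and 19.4 CPM against 13.6 and 14.6 CPM, log2 FC = -0.45 ± 0.089; FDR = 0.00685, and 0.128 without replicate 1 of shRBM10#2). Over the list 2 of 13 were higher and 2 lower, and 2 and 1 with the GC offset. HLA genes are highly similar and reads can be shared between them, so their totals are uncertain. Of 25 interferon-stimulated genes 1 was higher and 2 were lower in either fit. The higher gene was TLR3 in the edgeR fit and ISG15 with the GC offset, so that no higher gene was called in both. Both lower genes, IFI6 and OAS2, were weakly expressed: IFI6 was at 3.68 and 8.52 CPM against 2.45 and 2.06 CPM (FDR = 0.0124, and 0.122 without replicate 2 of shRBM10#2).

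In the TGF-beta list, 4 of 19 tested genes were higher and 8 were lower (median log2 FC = -0.18), and 3 and 6 with the GC offset (median -0.23). Without replicate 1 or 2 of shRBM10#2 there were 1 higher and 3 lower, and 0 higher and 1 lower. INHBA, which encodes the activin A subunit, was at 80.3 and 78.5 CPM with shRBM10#1 and at 48.3 and 43.3 CPM with shRBM10#2 (log2 FC = -0.79 ± 0.071, FDR = 0.000447), and kept its call in every leave-out. Its shScr level of 52.1 and 54.9 CPM was close to that of shRBM10#2. TGFBI, a matrix protein named for its induction by TGF-beta, was at 267 and 259 CPM against 196 and 203 CPM (log2 FC = -0.40 ± 0.057; FDR = 0.00193, and 0.0874 without replicate 1 of shRBM10#2). LTBP3, which holds latent TGF-beta, was at 653 and 667 CPM against 474 and 462 CPM (log2 FC = -0.50 ± 0.056, -0.23 with the GC offset). Its FDR was 0.0656 without replicate 2 of shRBM10#2. The receptor gene TGFBR2 was higher, at 58.1 and 63.6 CPM against 81.2 and 77.2 CPM (log2 FC = 0.38 ± 0.068; FDR = 0.00442, and 0.109 without replicate 1 of shRBM10#2).

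Of 13 genes of the Wnt list 1 was higher and 4 were lower, and 0 and 3 with the GC offset. WNT7B, a ligand made by airway epithelium, was at 144 and 141 CPM with shRBM10#1 and at 99.8 and 97.3 CPM with shRBM10#2 (log2 FC = -0.53 ± 0.057, FDR = 0.000666, kept in every leave-out), with shScr at 109 and 110 CPM. NKD1, a feedback inhibitor of the pathway, was at 5.53 and 5.18 CPM against 2.56 and 3.26 CPM (log2 FC = -0.88 ± 0.167; FDR = 0.00571, and 0.0849 without replicate 1 of shRBM10#2). DKK1, a secreted inhibitor, was the higher member (16 and 17.7 CPM against 22.5 and 21.6 CPM), but was not called with the GC offset (FDR = 0.052). In the Notch list the called genes changed with the offset, from RBPJ higher and JAG2 and NOTCH1 lower to DLL3, HES4 and NRARP higher, so that no member was called in both fits.

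Genes of the basement membrane that differed were mostly lower with shRBM10#2. In the matrix list 1 of 27 tested genes was higher and 8 were lower (median log2 FC = -0.17), and 1 and 4 with the GC offset. AGRN, the heparan sulfate proteoglycan agrin, was at 862 and 786 CPM with shRBM10#1 and at 482 and 483 CPM with shRBM10#2 (log2 FC = -0.77 ± 0.064, FDR = 0.000334), against 792 and 797 CPM with shScr. HSPG2, which encodes perlecan of the same class, was at 63.5 and 53.7 CPM against 32.9 and 27.9 CPM (log2 FC = -0.95 ± 0.0997, FDR = 0.000636), against 60.9 and 69.0 CPM with shScr. For both proteoglycans each shRBM10#2 library was below both of shScr, while the mean of shRBM10#1 was 824 CPM against 794 CPM for AGRN and 58.6 CPM against 65 CPM for HSPG2. Both kept their call in every leave-out. They are GC-rich, at 67.6% and 64.5%, and with the GC offset the log2 FC was -0.50 for AGRN and -0.71 for HSPG2. FBLN1, a fibulin, was at 576 and 609 CPM against 446 and 450 CPM (log2 FC = -0.40 ± 0.058; FDR = 0.00193, and 0.0846 without replicate 2 of shRBM10#2). LAMB3, a chain of laminin 332, was at 301 and 292 CPM against 231 and 232 CPM (log2 FC = -0.36 ± 0.056) and was not called with the GC offset (FDR = 0.0521).

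Keratins, the intermediate filaments of epithelium, gave 2 higher and 7 lower of 17 tested (median log2 FC = -0.24), and 2 and 5 with the GC offset, where the median was -0.07. KRT19 was at 5396 and 5499 CPM with shRBM10#1 and at 3611 and 3799 CPM with shRBM10#2 (log2 FC = -0.56 ± 0.059, -0.36 with the GC offset), with shScr between, at 4632 and 4342 CPM. KRT8, a keratin of simple epithelium, had a log2 FC of -0.24 (FDR = 0.0323) and was not called with the GC offset (FDR = 0.562). KRT14, a basal-cell keratin, was at 4.57 and 1.33 CPM against 0.35 and 0.209 CPM (FDR = 0.00469, and 0.0749 without replicate 2 of shRBM10#2). Tight junction genes parted: CLDN1, a claudin, was higher (11 and 11.3 CPM against 18 CPM in both shRBM10#2 libraries, log2 FC = 0.69 ± 0.0905, kept in every leave-out), as was OCLN, which encodes occludin (42.7 and 41.0 CPM against 63.2 and 56.7 CPM; FDR = 0.00169, and 0.0574 without replicate 1 of shRBM10#2). TJP3, a scaffold of the same junction, was lower (91.8 and 91.3 CPM against 64.7 and 65.1 CPM; FDR = 0.000936, and 0.0548 without replicate 2 of shRBM10#2). Over the junction list 2 of 21 were higher and 5 lower, and 2 and 3 with the GC offset. Of 12 integrins 2 were higher and 2 lower, and 1 and 2 with the GC offset, and ITGB8, which binds latent TGF-beta, kept its call in every leave-out (5.88 and 4.53 CPM against 10.5 and 10.0 CPM, log2 FC = 0.99 ± 0.139).

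S100 calcium-binding proteins and metallothioneins were higher in 6 of 15 tested and lower in 0 (median log2 FC = 0.19), and in 7 and 0 with the GC offset (median 0.41). S100A11 was at 286 and 345 CPM with shRBM10#1 and at 452 and 479 CPM with shRBM10#2 (log2 FC = 0.56 ± 0.085, FDR = 0.00222), and MT1F, a zinc-binding metallothionein, was at 12.2 and 18.2 CPM against 30.7 and 25.7 CPM (log2 FC = 0.88 ± 0.158, FDR = 0.00435). None of the called members kept its call in every leave-out. S100A11 lost its call without replicate 2 of shRBM10#2, and MT1F without replicate 1 of shRBM10#2. Over the list 1 member was called when either of those libraries was left out.

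Of 24 mitosis genes 5 were higher and 0 lower, and of 24 replication genes 7 were higher and 2, MCM5 and MCM7, lower; with the GC offset the counts were 3 and 0, and 4 and 0. The balance depended on replicate 2 of shRBM10#1, without which 5 mitosis genes were higher and 6 lower, and 11 replication genes higher and 5 lower. CDK1, the mitotic kinase, was at 227 and 237 CPM with shRBM10#1 and at 332 and 329 CPM with shRBM10#2 (log2 FC = 0.51 ± 0.057, 0.29 with the GC offset; FDR = 0.00078, and 0.0508 without replicate 2 of shRBM10#2). CCNE2, the cyclin E2 of S-phase entry, was at 18.4 and 20.8 CPM against 31.3 and 30.0 CPM (log2 FC = 0.65 ± 0.082, 0.43 with the GC offset) and was the only member of either list kept in every leave-out. TYMS and RRM2, enzymes of nucleotide supply, were at 88.9 and 92.4 CPM against 121 CPM in both shRBM10#2 libraries, and at 315 and 309.9 CPM against 419 and 409 CPM. Their FDR rose to 0.0732 and 0.0743 without replicate 2 of shRBM10#2. Of 19 targets of p53 4 were higher and 4 lower, but 4 and 1 with the GC offset, and only SESN2 kept its call; CDKN1A, the p21 inhibitor, was at 16.3 and 21.2 CPM against 22.2 and 19.3 CPM (FDR = 0.427).

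Among antioxidant genes regulated by NRF2, 9 of 24 were higher and 3 lower (median log2 FC = 0.09), and 6 and 2 with the GC offset. AKR1C2, an aldo-keto reductase, was at 810.1 and 831 CPM with shRBM10#1 and at 1185 and 1208 CPM with shRBM10#2 (log2 FC = 0.54 ± 0.057, kept in every leave-out); its near relatives AKR1C1 and AKR1C3 can share its reads. GCLM, the modifier subunit of the enzyme that starts glutathione synthesis, was at 191 and 170 CPM against 264 and 269 CPM (log2 FC = 0.56 ± 0.067; FDR = 0.00099, and 0.0525 without replicate 2 of shRBM10#2). Beside ALDH1A1, the aldehyde and retinoid list had RDH11 and CYP26A1 higher and 5 members lower of 18, among them DHRS3, which turns retinal back to retinol (76.4 and 79.9 CPM against 58.0 and 52.0 CPM, log2 FC = -0.51 ± 0.071), and ALDH1A3, which makes retinoic acid as ALDH1A1 does (183 and 162 CPM against 136 and 134 CPM, log2 FC = -0.36 ± 0.069). With the GC offset 4 members were higher and 2 lower. The FDR of DHRS3 was 0.0743 and that of ALDH1A3 was 0.131 without replicate 2 of shRBM10#2.

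The lists of energy and lipid metabolism gave shallow and mixed differences. ATP5C1, the ATP synthase subunit described above with a log2 FC of 1.03, was not a member of these lists. Of 27 glycolysis and hypoxia genes 4 were higher and 7 lower, and 4 and 3 with the GC offset. The enolases moved in opposite directions: ENO2, the neuronal form, was at 40.5 and 40.7 CPM against 63.4 and 65.8 CPM (log2 FC = 0.67 ± 0.063, kept in every leave-out), and ENO1, the common form, at 3609 and 3684 CPM against 2664 and 2693 CPM (log2 FC = -0.45 ± 0.057; FDR = 0.00119, and 0.0732 without replicate 2 of shRBM10#2). Of 27 genes of oxidative phosphorylation 9 were higher and 2 lower, but with the GC offset 4 and 2, and none was called when either replicate of shRBM10#2 was left out. Cholesterol synthesis gave 6 higher and 3 lower of 24 but 2 and 0 with the GC offset, and fatty acid synthesis 4 and 3 of 13 but 1 and 1. MSMO1, a sterol oxidase, was the best-separated of these (53.1 and 49.3 CPM against 70.6 and 75.8 CPM, log2 FC = 0.52 ± 0.069, 0.35 with the GC offset; FDR = 0.00142, and 0.0688 without replicate 2 of shRBM10#2).

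The ERK feedback and immediate early genes, a readout of EGFR signaling, gave 3 higher and 7 lower of 21 (median log2 FC = -0.19), and 4 and 3 with the GC offset (median -0.05). JUNB, of the AP-1 family, was at 249.7 and 282 CPM with shRBM10#1 and at 163 and 174 CPM with shRBM10#2 (log2 FC = -0.66 ± 0.072, -0.42 with the GC offset, kept in every leave-out). EGR1, an early growth response factor, was higher (12.4 and 16.1 CPM against 21.2 and 21.8 CPM, log2 FC = 0.58 ± 0.118; FDR = 0.00714, and 0.108 without replicate 2 of shRBM10#2), so that immediate early factors did not move together. Of 18 YAP and TEAD targets 3 were higher and 4 lower, and 2 and 1 with the GC offset. F3, the tissue factor that starts coagulation, was at 65.2 and 59.5 CPM against 108 CPM in both shRBM10#2 libraries (log2 FC = 0.80 ± 0.065, FDR = 0.000334, kept in every leave-out), with shScr at 110 and 116 CPM.

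Genes that process RNA or hairpins differed by small folds, and 0 members of the SR and hnRNP or small RNA lists met both criteria. At FDR below 0.05 alone, 26.1% of the SR and hnRNP list and 30.8% of the small RNA list were called, against 26.3% of all genes. With the GC offset the shares of all genes were 6.26% higher and 6.98% lower. Of 23 SR and hnRNP splicing factors 0 were higher and 6 were lower in the edgeR fit, and 0 and 7 with the GC offset; 1 was called without replicate 1 of shRBM10#2 and 0 without replicate 2. SRSF4 led, at 86.7 and 85.4 CPM with shRBM10#1 and at 64.2 and 62.0 CPM with shRBM10#2 (log2 FC = -0.45 ± 0.06; FDR = 0.00146, and 0.0743 without replicate 2 of shRBM10#2). In the small RNA pathway AGO2, the Argonaute that cuts a target, was at 55.0 and 47.6 CPM against 41.9 and 37.5 CPM (log2 FC = -0.37 ± 0.087; FDR = 0.0136, and 0.213 without replicate 2 of shRBM10#2), and 1 of 13 members was higher and 3 lower, but 0 and 1 with the GC offset. Of 15 Bcl-2 family genes, regulators of apoptosis at the mitochondrion, 2 were higher and 1 lower, and 1 and 1 with the GC offset. BCL2, 1 of the higher genes and an inhibitor of apoptosis, was at 1.66 and 1.82 CPM against 2.53 and 2.92 CPM (FDR = 0.0457) and turned to a log2 FC of -0.0206 with a gene length offset (FDR = 0.953). BAX, a pore-forming killer, was at 65.1 and 66.1 CPM against 54.0 and 56.7 CPM (log2 FC = -0.24 ± 0.0625, FDR = 0.0189), and was not called with the GC offset (FDR = 0.564). No member of the family was called when either replicate of shRBM10#2 was left out.

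The remaining lists are read against the 26.3% of all genes called. Ribosomal proteins were 6 higher and 9 lower of 37 (40.5% called), and 5 and 5 with the GC offset, with RPS9 (1481 and 1518 CPM against 1013 and 1025 CPM) the only one kept in every leave-out. Lysosome and autophagy genes were 1 higher and 4 lower of 22, and 1 and 1 with the GC offset. Lung lineage and secretory genes were 1 higher and 4 lower of 13 (1 and 3 with the GC offset), mesenchymal genes 2 and 2 of 13 (1 and 2), and replication-dependent histones 0 and 1 of 11 (0 and 1); none of their members kept its call in every leave-out. Ranked by the difference in TPM, a level per transcript length, rather than by fold, the 5 largest rises among genes called at FDR below 0.05 were RPS27, RPL39, RPS21, RPL21P28 and RPS15A, and the 5 largest falls RPL13AP5, KRT19, RPS14, RPS9 and KRT8. RPL21P28 and RPL13AP5 are pseudogenes that can share the reads of RPL21 and RPL13A, so their totals are uncertain. The shScr libraries alone stood apart in RPS27 (591 and 423 CPM), RPS21 (857 and 608 CPM) and RPL39 (1024 and 859 CPM). They lay closer in RPL21P28 (356 and 380 CPM) and RPS15A (439 and 429 CPM). For RPS27 the mean was 606 CPM with shRBM10#1 and 823 CPM with shRBM10#2. RPL39 (FDR = 0.0676) and KRT8 were not called with the GC offset.

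A set of liver-secreted proteins appeared in the shRBM10#2 libraries, and was put together after their values were seen. ALB, serum albumin, had 2 and 1 counts with shRBM10#1 and 77 and 94 counts with shRBM10#2 (0.0639 and 0.0271 CPM against 2.07 and 2.45 CPM), and 0 counts in both shScr libraries. Over 16 such genes, among them HP, SERPINA1, AFP and the apolipoproteins, the counts summed to 10 and 16 with shRBM10#1, 14 and 13 with shScr, and 176 and 221 with shRBM10#2, or 0.32 and 0.434, 0.431 and 0.395, and 4.74 and 5.77 CPM. Of the 16, 15 were above 0 in each shRBM10#2 library and 7 and 8 in the shRBM10#1 libraries. The transcripts made up a small share of both shRBM10#2 libraries, and whether they come from the PC-9 cells was not tested.

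The 7 capital letters of each site were also searched on the mRNA strand in the 3′ UTRs of the 12865 tested genes with one. GTTCATA, of shRBM10#1, was in 8.19% of them and GAGTTTA, of shRBM10#2, in 9.89%. Of the 11 genes at or above 5 CPM that met the criteria, were higher with shRBM10#2 and had a 3′ UTR, 1 held GTTCATA, HBEGF, and 0 held GAGTTTA. Of the 15 lower ones, 1 held GTTCATA, LYNX1, and 2 held GAGTTTA, KRT23 and LYNX1. A match describes letters in an annotated UTR and is not evidence of pairing, and the guide ends that Dicer makes were not measured.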

How the data were processed

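RNA-Seq of total RNA from PC-9 cells gave 6 libraries, grouped by their titles. Per the submitters' processing notes the authors aligned reads with STAR 2.4 to hg19 and quantified transcripts with RSEM 1.2.29; the deposited tables hold expected counts, TPM, FPKM and isoform percent per transcript. The study's methods name parental PC-9 as control, the labels shScr. Expected counts were summed per symbol and rounded, and genes passing filterByExpr were tested with edgeR 4.0.16 (TMM, quasi-likelihood, Benjamini-Hochberg FDR; R 4.3.3) on the 4 hairpin libraries without covariates. SE is the log2 FC divided by the root of F. CPM used TMM-scaled totals over 6 libraries, and printed shScr values share that scaling. Gene-level GC content, UTRs and hairpin sites came from GENCODE transcripts on GRCh38, a build other than the files'; no coordinate was converted. The GC offset was a loess curve of log count against GC per library, and genes without a known GC content were left uncorrected.

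The comparison, the 35 gene lists and the 5 marker lists were chosen with earlier results of these data known, so no list is independent evidence. Genes were named by rule: RBM10; the 12 largest rises and 12 largest falls meeting the criteria at or above a mean of 5 CPM; the 5 largest rises and falls in TPM at FDR below 0.05; and the up to 4 members of each list with the smallest P, and genes printed outside this rule (such as EGFR, SLC7A11, CDKN1A, the readthrough models and the liver genes) were chosen after their values were seen. The edgeR step was tested on simulated data. Alternatives were DESeq2 1.42.0, limma 3.58.1 on voom weights or on log2(TPM + a pseudocount of 1 or 0.1), other filters and scalings, a replicate block, and leaving out each library. Deposited FPKM and isoform percent columns were not used. Replicate numbers 1 and 2 are shared by the groups, but deviations of same-numbered libraries correlated at -0.03 between the hairpins over 10648 genes, so they were not treated as pairs. Values of some list members are not reported here.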

Additional observations from a re-analysis of the deposited data

How the results depend on the processing

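The count of 161 genes meeting both criteria was 77 with DESeq2, 39 with limma on log2(TPM + 1), 67 at FDR below 0.01 and 3711 without the fold criterion. It was 37 to 271 when 1 library was left out. The 104 higher genes became 36 with DESeq2, 24 with limma on log2(TPM + 1) and 17 to 177 in the leave-outs; the 57 lower genes became 15 with limma on log2(TPM + 1) and 20 to 105 in the leave-outs. The 229 list members called became 30 to 378 in the leave-outs. In leave-outs the lone library is assumed to vary like the other hairpin's pair. With the GC offset 114 genes met the criteria, 75 higher and 39 lower. Other settings (DESeq2 size factors, filters, 6 libraries in the fit, exactTest, voom, a gene length offset, log2(TPM + 0.1), no readthrough symbols) gave 118 to 216. With a replicate block 192 genes met the criteria and 4520 passed the FDR alone; the numbers do not pair the libraries, with a correlation of -0.0298 between the hairpins. RBM10 kept its direction and its FDR below 0.05 under every alternative run (log2 FC -1.15 to -0.93). Of the 29 genes at or above 5 CPM, 29 met the criteria with DESeq2, 15 with limma on log2(TPM + 1), 24 on log2(TPM + 0.1), 18 with the GC offset and 20 to 25 in the leave-outs. BCL2 turned to -0.0206 with the gene length offset and BOK to 0.0671 with the GC offset; BCL2 had been called (FDR = 0.0457) and was not then, BOK was called in neither, and the cause was not tested.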
